A study of Mus musculus with 9 samples.

Results

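The vascular endothelial growth factor (VEGF) and angiopoietin systems were followed in right ventricular myocardium of mice after pulmonary banding. The genes were 4 ligands of the VEGF family (Vegfa, Vegfb, Vegfc and Pgf), their 3 receptors (Flt1, Kdr and Flt4), the angiopoietins Angpt1 and Angpt2, and the angiopoietin receptor Tek. They were chosen by name, as all probe sets whose symbol in the array's probe-gene table is exactly one of these 10 genes. That gave 19 of the 45101 probe sets on the array, and all 10 genes were among the 18193 genes measured. The banding group held 5 arrays and the sham group 4, each of right ventricle from male C57BL6J mice aged 6 to 8 weeks. In pulmonary banding a ligature narrows the pulmonary artery, so that the right ventricle works against a raised pressure, and sham mice undergo the operation without it. The labels name no engineered allele and do not state the time since surgery. They do not say that each array is a separate mouse either, so p-values measure only the spread between these samples, which may be technical.

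VEGF ligands are secreted proteins that act on receptor tyrosine kinases of endothelial cells. VEGF-A binds the receptors encoded by Flt1 and Kdr, VEGF-B and placental growth factor bind the Flt1 product, and VEGF-C binds the Flt4 product and, after processing, the Kdr product. Angiopoietin 1 activates the receptor Tie2, encoded by Tek, and keeps vessels stable, whereas angiopoietin 2 can act as its antagonist on the same receptor. In heart muscle these systems govern capillary supply, which has to keep pace when cardiomyocytes enlarge.

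All values are log2 expression per probe set as deposited, with a lowest value of 2.198 shared by the arrays and array medians of 3.23 to 3.31. A mean under 4.198, which is 2 log2 units above the lowest value, is called dim. A difference is banding minus sham, given ± its SE, and a gene was called when its adjusted p in limma was under 0.05. Sham replicate 4 stood apart in its liver transcripts: on a scale where the highest array is 1, the mean level of 18 liver genes was 0.00267 to 0.0059 on the banding arrays, 0.0609 to 0.164 on sham replicates 1 to 3 and 1 on sham replicate 4. All 18 liver genes were lower in banding, with a median difference of -7.05. Results that move without sham replicate 4 are given with and without it. Every sham array exceeded every banding array in liver transcripts, so leaving out sham replicate 4 does not remove this difference. Liver level and group therefore cannot be fully told apart here. On 7 of the 19 probe sets 2 or more arrays held an identical deposited value, against 64.2% of all 34945 probe sets with 1 gene and 33.8% of the 18420 of them that were not dim. The sources used here do not describe the step that gives identical values. An overlap, SD or distance that rests on one is therefore less certain than the decimals imply.

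Of the 10 genes, each represented by its brightest probe set, 4 were higher in banding (Vegfc, Kdr, Flt4 and Flt1), 3 were lower (Angpt1, Pgf and Vegfb) and 3 did not pass (Angpt2, Tek and Vegfa). The calls of Vegfc, Flt4 and Flt1 rested on the brightest probe set alone, and another Vegfc probe set was called lower. Among all 18193 genes, 18.4% were called higher, 20.0% lower and 38.4% either way. Calls were more frequent among brighter genes. Of the 11013 genes above the dim level in at least 1 group, tested alone, 3570 were called higher and 3824 lower. In that fit 5 of the 10 genes were higher and 3 lower. With each array centred on its median, the calls over all genes were 3043 higher and 10485 lower, against 3356 higher and 3633 lower as deposited. Centring moved every gene's difference by the same amount, taking the median of all genes from 0.00 to -0.13. That includes genes at the lowest value of the table on every array. How many of the 10485 were dim was not counted, so this count does not measure a general fall. The groups did not overlap in 5 of the 10 genes, against 36.7% of all genes. The median difference was 0.31 over the 10 genes and 0.00 over all genes. The 0.31 counts Vegfc at 1.51, from its brightest probe set. The Vegfc probe set called lower differed by -1.14, and the median with that value was not computed. Tested singly, 4 of the 19 probe sets were higher, 5 lower and 10 did not pass, where 15.3% of all probe sets were called higher, 16.1% lower and 31.4% either way. The groups did not overlap in 8 of the 19, against 30.7% of all probe sets. One of the 19, the dimmer probe set of Angpt2, was dim in both groups. No gene of the 10 was dim by its brightest probe set.

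**Figure D1:**
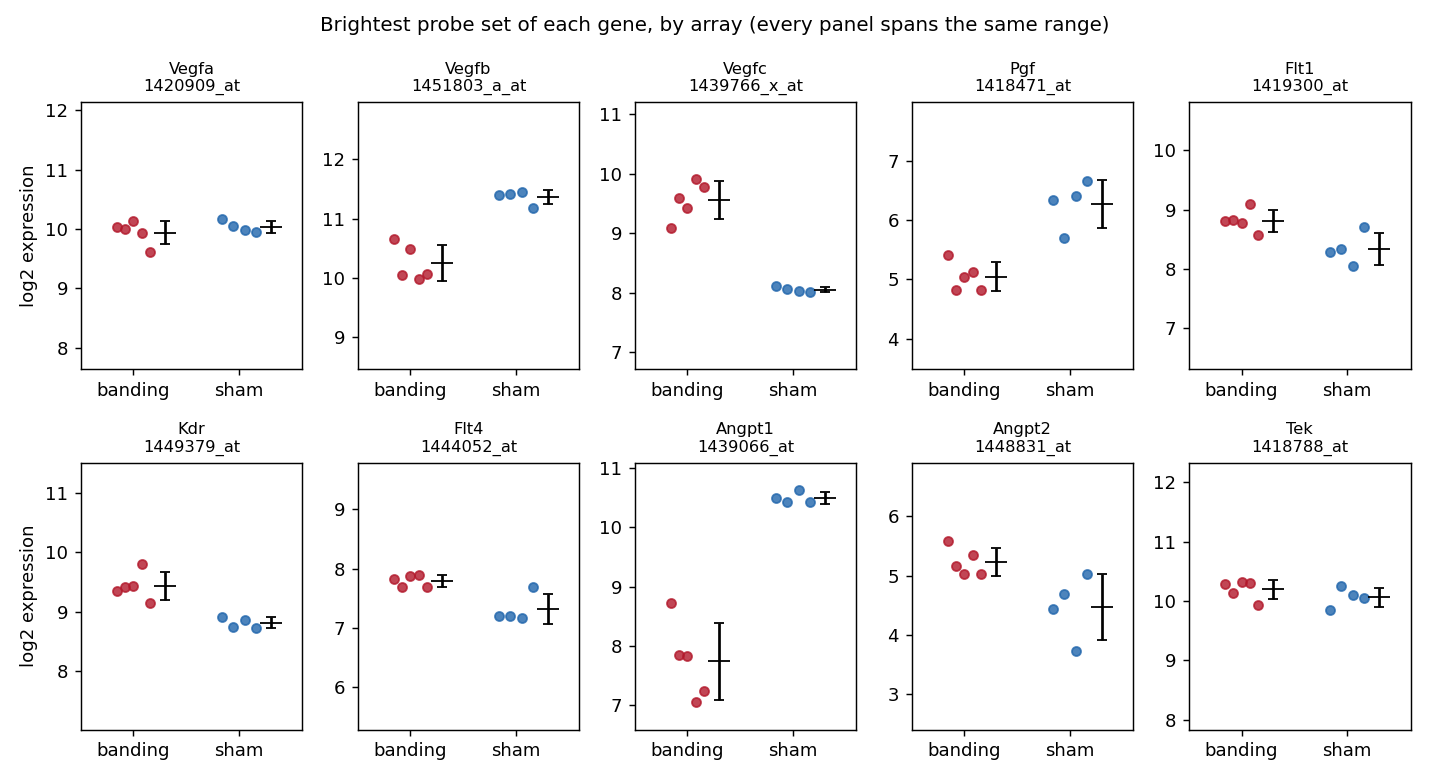
Log2 expression of the brightest probe set of each gene on every array, with banding left of sham and replicates from left to right within a group. Bars show the mean and SD, and every panel spans the same range. The 5 banding arrays of Angpt1 lie between 7.05 and 8.72, under all 4 sham arrays at 10.42 to 10.63.

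The most widely made ligand, Vegfa, did not pass the test, and Vegfb was lower on every banding array than on any sham array. Vegfa, which drives sprouting and is induced by low oxygen, had 10.03, 9.997, 10.13, 9.93 and 9.61 in banding replicates 1 to 5 and 10.17, 10.04, 9.99 and 9.94 in sham replicates 1 to 4 (1420909_at). The groups overlapped. Its difference was -0.10 ± 0.11 (SE), with a 95% interval of -0.35 to 0.15 and an adjusted p of 0.555 in limma. The other Vegfa probe set, 1451959_a_at, was at 7.89 ± 0.27 over the 5 banding arrays and 7.91 ± 0.33 over the 4 sham arrays (means ± SD), a difference of -0.02 with an interval of -0.47 to 0.43.

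Vegfb encodes a ligand of the Flt1 product that is abundant in heart muscle. It had 10.66, 10.06, 10.50, 9.99 and 10.07 in banding replicates 1 to 5, against 11.41, 11.41, 11.46 and 11.19 in sham replicates 1 to 4 (1451803_a_at). Every banding array lay under every sham array, with banding replicates 1 and 3 nearest to sham. Vegfb was 2.16-fold lower in banding, a difference of -1.11 ± 0.16 (adjusted p = 0.00103 in limma). With each array left out in turn its difference stayed between -1.21 and -1.04.

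Pgf encodes placental growth factor, which also binds the Flt1 product. It had 5.41, 4.83, 5.03, 5.13 and 4.83 in banding and 6.34, 5.69, 6.40 and 6.65 in sham (1418471_at). The groups did not overlap, and sham replicate 2 was the sham array nearest to banding. Pgf was 2.34-fold lower, a difference of -1.22 ± 0.21 (adjusted p = 0.00257 in limma), in a range not far above the dim level. Banding replicates 2 and 5 held the same value, 4.829.

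Vegfc, a ligand that drives lymphatic growth, was measured by 3 probe sets that went different ways, so no direction is settled for the gene. The brightest, 1439766_x_at, had 9.09, 9.59, 9.43, 9.92 and 9.78 in banding and 8.11, 8.05, 8.02 and 8.01 in sham. It was 2.85-fold higher in banding, a difference of 1.51 ± 0.16 (adjusted p = 0.000274 in limma). Its ID marks it as one that can bind other transcripts.

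The other Vegfc probe sets had no such mark. Probe set 1440739_at had 7.98, 8.21, 7.88, 8.21 and 8.09 in banding and 9.10, 9.12, 9.39 and 9.26 in sham. It fell by 1.14 log2 units, with an adjusted p of 0.000118 over all probe sets in limma. Probe set 1419417_at, the only one of the 3 that the table ties to a RefSeq mRNA, had 8.23, 8.38, 8.29, 9.001 and 8.58 in banding and 7.90, 8.21, 8.18 and 7.96 in sham. Its groups did not overlap, by a narrow margin, and its difference of 0.43 ± 0.17 did not pass (adjusted p = 0.0943 in limma). With the mean of its probe sets Vegfc differed by 0.27 and did not pass (adjusted p = 0.134 in limma). Without the probe set so marked the gene was called lower.

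**Figure D2:**
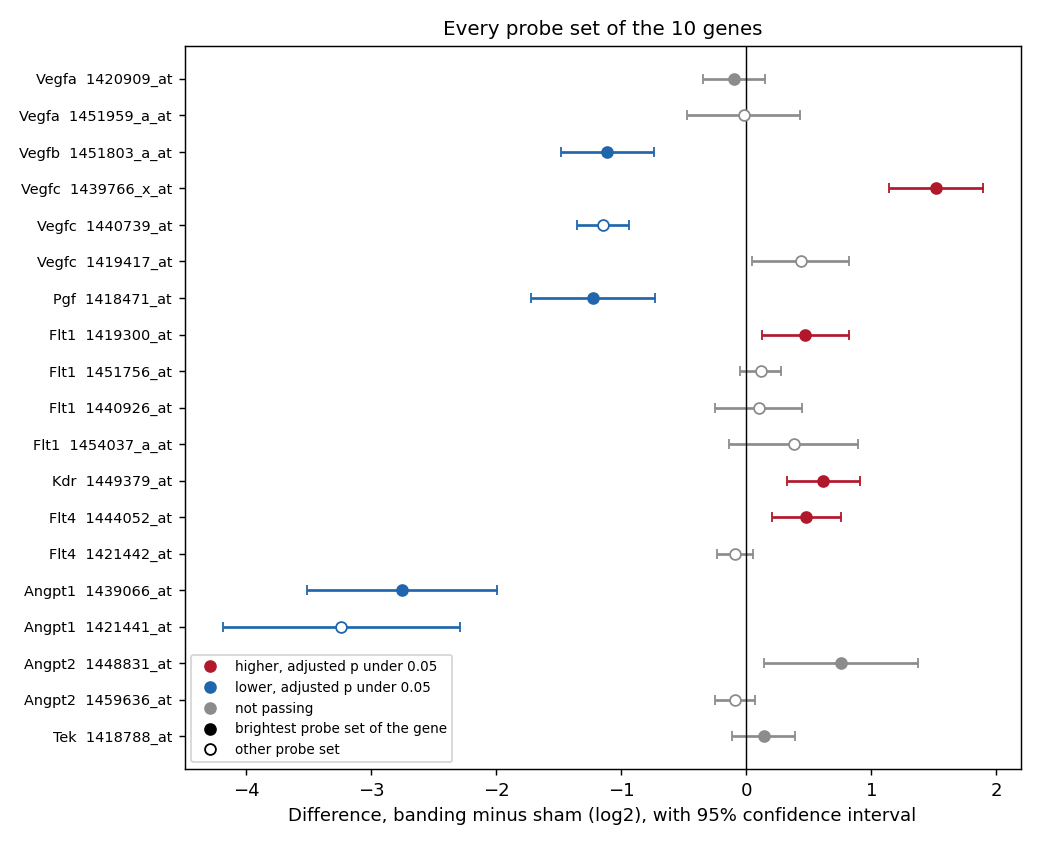
Difference between banding and sham (log2, horizontal axis) for each of the 19 probe sets, with its 95% confidence interval from the fit over all probe sets. Filled points are the brightest probe set of a gene, and colours give the call. The Vegfc probe sets lie on both sides of 0, from -1.14 to 1.51, while both Angpt1 probe sets lie under -2.

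The 3 VEGF receptors were called higher in banding by their brightest probe sets, by less than 0.7 log2 units each. Kdr encodes VEGFR2, the main signalling receptor of VEGF-A. It had 9.35, 9.42, 9.43, 9.81 and 9.15 in banding replicates 1 to 5 and 8.92, 8.75, 8.86 and 8.72 in sham replicates 1 to 4 (1449379_at). Every banding array lay above every sham array, with banding replicate 4 the highest. Kdr was 1.53-fold higher, a difference of 0.62 ± 0.12 (adjusted p = 0.00537 in limma), and it stayed between 0.52 and 0.69 with each array left out in turn.

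Flt1 encodes VEGFR1, which binds VEGF-A tightly and signals weakly. Its brightest probe set, 1419300_at, had 8.81, 8.82, 8.77, 9.09 and 8.57 in banding and 8.29, 8.33, 8.04 and 8.70 in sham. The groups overlapped, because sham replicate 4 lay above banding replicate 5. It was called 1.39-fold higher, a difference of 0.47 ± 0.15 (adjusted p = 0.0381 in limma). That call held in 2 of the 9 fits that each left out 1 array, those without sham replicate 4 or banding replicate 5, and the adjusted p over the 9 ran from 0.0101 to 0.091. Without sham replicate 4 the difference was 0.59. The 3 other Flt1 probe sets did not pass. They differed by 0.11 (1451756_at, interval -0.05 to 0.28), 0.10 (1440926_at, -0.25 to 0.45) and 0.38 (1454037_a_at, -0.13 to 0.89). With the mean of its probe sets Flt1 differed by 0.27 (adjusted p = 0.108 in limma).

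Flt4 encodes VEGFR3, the receptor of VEGF-C on lymphatic and sprouting endothelium. Its brightest probe set, 1444052_at, had 7.82, 7.69, 7.88, 7.90 and 7.69 in banding and 7.20, 7.20, 7.17 and 7.69 in sham. Sham replicate 4 alone reached the banding range, at a value identical to that of banding replicates 2 and 5, so the overlap rests on a tie of the kind described above. Flt4 was 1.39-fold higher, a difference of 0.48 ± 0.12 (adjusted p = 0.0134 in limma), and 0.60 without sham replicate 4 (adjusted p = 0.000538). The dimmer probe set, 1421442_at, held 4.716 on all 5 banding arrays and 4.72, 5.02, 4.72 and 4.79 on the sham arrays, a difference of -0.09 that did not pass (adjusted p = 0.344 in limma). The rise therefore rests on 1 of 2 probe sets.

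The change in Flt1 relative to Kdr was compared within arrays, where the level of 1 gene is subtracted from that of the other. Flt1 minus Kdr averaged -0.62 ± 0.07 over the 5 banding arrays and -0.47 ± 0.34 over the 4 sham arrays (SD). The difference of -0.14 gave an exact permutation p of 0.46, two-sided. Without sham replicate 4 it was 0.01. With the mean of the probe sets it was -0.35 (exact permutation p = 0.0238), since the dimmer Flt1 probe sets moved less. An unequal change of Flt1 and Kdr was thus not detectable with the brightest probe sets.

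Promoter sequences are shown for Kdr and Flt1, whose brightest probe sets moved the same way, for Vegfb, which fell, and for Vegfa, which did not pass. They are RefSeq windows of GRCm38.p6 from 250 bases before to 50 bases after a gene start, printed 5′ to 3′ on the gene's strand. Capitals mark a match, on either strand, to the hypoxia response core ACGTG or GCGTG, to the core CGGAA of ETS factors that act in endothelium, or to AAGGTCA, an element of oestrogen-related receptors.
Kdr (chr5:75978406-75978705, minus strand): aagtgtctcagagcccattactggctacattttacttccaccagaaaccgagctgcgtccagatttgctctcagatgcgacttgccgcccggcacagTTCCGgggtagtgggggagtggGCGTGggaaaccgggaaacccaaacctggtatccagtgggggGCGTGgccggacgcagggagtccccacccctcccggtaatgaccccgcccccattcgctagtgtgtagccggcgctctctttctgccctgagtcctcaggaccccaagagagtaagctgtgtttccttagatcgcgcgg
Flt1 (chr5:147725962-147726261, minus strand): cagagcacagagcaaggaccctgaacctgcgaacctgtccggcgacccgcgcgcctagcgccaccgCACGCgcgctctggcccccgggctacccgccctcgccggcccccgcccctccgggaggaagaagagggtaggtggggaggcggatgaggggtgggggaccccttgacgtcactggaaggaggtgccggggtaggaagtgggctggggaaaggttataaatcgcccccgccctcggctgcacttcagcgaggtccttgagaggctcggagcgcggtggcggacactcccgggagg
Vegfb (chr19:6987602-6987901, minus strand): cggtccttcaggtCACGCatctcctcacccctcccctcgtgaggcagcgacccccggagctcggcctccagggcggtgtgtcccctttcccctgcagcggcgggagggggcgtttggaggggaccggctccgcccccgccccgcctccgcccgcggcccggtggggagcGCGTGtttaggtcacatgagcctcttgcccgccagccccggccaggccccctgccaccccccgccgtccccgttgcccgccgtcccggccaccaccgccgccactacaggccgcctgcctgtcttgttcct
Vegfa (chr17:46032328-46032627, minus strand): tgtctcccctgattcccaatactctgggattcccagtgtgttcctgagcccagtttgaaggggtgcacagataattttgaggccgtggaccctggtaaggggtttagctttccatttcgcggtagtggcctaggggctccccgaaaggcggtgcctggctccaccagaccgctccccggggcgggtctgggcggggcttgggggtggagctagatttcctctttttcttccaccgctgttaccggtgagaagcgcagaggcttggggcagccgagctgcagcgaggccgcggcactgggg
The Kdr window held GCGTG at 131 and 89 bases before the gene start and CGGAA at 153. The Flt1 window held GCGTG at 184, and the Vegfb window held it at 237 and 81. The Vegfa window held no match, and the window at a further Vegfa start held ACGTG and GCGTG. Of the 10 genes 8 had a promoter entry, with 10 windows, and GCGTG was found in 5 of the 10 windows, ACGTG in 1, CGGAA in 1 and AAGGTCA in 0. Over all 32851 promoter windows of this length, 32.4% held GCGTG, 19.6% ACGTG, 29.9% CGGAA and 4.72% AAGGTCA. The windows of these genes were 52.0% to 75.3% G and C. A match here describes letters, and binding was not measured.

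Angpt1 changed more than any other gene of the 10. It encodes the ligand that activates Tie2 and is made by cells around the vessel wall. Probe set 1439066_at had 8.72, 7.85, 7.83, 7.05 and 7.24 in banding replicates 1 to 5, against 10.49, 10.42, 10.63 and 10.43 in sham replicates 1 to 4. Banding replicate 1 was the banding array nearest to sham and still lay 1.70 log2 units under the lowest sham array. Angpt1 was 6.73-fold lower, a difference of -2.75 ± 0.32 (adjusted p = 0.000422 in limma).

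The dimmer Angpt1 probe set, 1421441_at, had 6.12, 4.49, 5.16, 4.29 and 4.32 in banding and 7.76, 8.16, 8.51 and 8.02 in sham. Banding replicate 1 was again the highest of its group and the groups did not overlap. The difference was -3.24 ± 0.41 (adjusted p = 0.000728 over all probe sets in limma). With each array left out in turn the brighter probe set gave -3.00 to -2.58. The spread was wider in banding, with an SD of 0.65 (n = 5), than in sham, with an SD of 0.10 (n = 4); the difference in spread was not tested.

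Angpt2, the context-dependent antagonist at Tie2, was low in both groups. Probe set 1448831_at had 5.58, 5.17, 5.03, 5.34 and 5.03 in banding and 4.44, 4.69, 3.73 and 5.03 in sham. Sham replicate 4 held a value identical to that of banding replicates 3 and 5, again a tie, and the other sham arrays lay lower. The difference of 0.76 ± 0.26, with an interval of 0.15 to 1.37, just missed the threshold (adjusted p = 0.0556 in limma). Without sham replicate 4 it was 0.94 and passed (adjusted p = 0.0231), and without sham replicate 3 it was 0.51 and did not. Probe set 1459636_at was dim in both groups, at 2.198 on all banding arrays and 2.198 to 2.52 on the sham arrays.

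Tek encodes Tie2, the receptor of both angiopoietins. It had 10.29, 10.14, 10.32, 10.29 and 9.94 in banding and 9.84, 10.24, 10.11 and 10.04 in sham (1418788_at). The groups overlapped throughout. Its difference was 0.14 ± 0.11, with an interval of -0.11 to 0.39 and an adjusted p of 0.409 in limma, so a change of more than 0.39 log2 units in either direction lay outside the interval.

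The 2 angiopoietins changed unequally. Angpt2 minus Angpt1 on the same array was -3.14, -2.68, -2.80, -1.71 and -2.20 in banding replicates 1 to 5, and -6.05, -5.73, -6.90 and -5.39 in sham replicates 1 to 4. The groups did not overlap. The mean was -2.51 ± 0.56 over the 5 banding arrays and -6.02 ± 0.64 over the 4 sham arrays (SD). The difference of 3.51 log2 units gave an exact permutation p of 0.00794, two-sided, the smallest that 5 and 4 arrays allow. Most of it came from Angpt1, whose own difference was -2.75, against 0.76 for Angpt2. These are brightness values of different probe sets, so the ratio's change can be read and its level cannot.

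**Figure D3:**
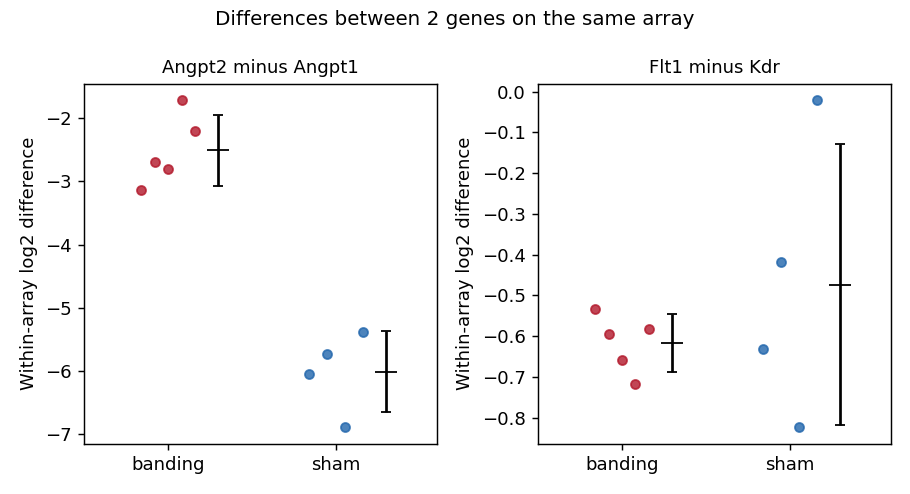
Within-array differences in log2 expression, Angpt2 minus Angpt1 (left panel) and Flt1 minus Kdr (right panel), with banding left of sham, points for arrays, and bars for the mean and SD. Angpt2 minus Angpt1 lies at -3.14 to -1.71 in banding, above all sham arrays at -6.90 to -5.39, whereas Flt1 minus Kdr overlaps.

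Among co-receptors and further members of both systems, rises outnumbered falls. Of 10 such genes, 5 were called higher and 1 lower, while 4 did not pass, and the median difference was 0.49. For this and every later list, the share over all genes was 18.4% higher and 20.0% lower. Of the 11013 genes above the dim level in at least 1 group, 3570 were called higher and 3824 lower. No list was tested as a set, and each listed gene was read by its brightest probe set alone. Svep1, a matrix protein reported to bind the Tie1 receptor, rose by 1.70 ± 0.15 log2 units (adjusted p = 0.000149 in limma). Esm1, a secreted proteoglycan of endothelial tip cells, was at least 3.41-fold higher, its sham mean being dim. Nrp2, a co-receptor of VEGF-C, was 2.15-fold higher. Ccbe1, which is needed to process VEGF-C to its active form, was 3.24-fold lower (-1.70 ± 0.29, adjusted p = 0.00231 in limma). Tie1, the partner receptor of Tie2, differed by 0.56 ± 0.21 and did not pass (adjusted p = 0.0778 in limma).

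Signal transducers downstream of the receptors went both ways. Of 19 measured, 6 were called higher and 5 lower, while 8 did not pass, and the median difference was 0.07. Rap1b, a small GTPase of endothelial junctions, rose 1.83-fold, the adaptor gene Shc1 2.07-fold, the focal adhesion gene Pxn 1.85-fold and the small GTPase gene Cdc42 1.66-fold. The IDs of the Pxn and Cdc42 probe sets mark them as able to bind other transcripts. The 5 lower genes were Pik3r1, the regulatory subunit of phosphoinositide 3-kinase (1.94-fold), the p38 kinase gene Mapk14 (1.68-fold), the protein kinase C gene Prkca (1.46-fold), the adaptor gene Grb2 (-0.38) and Akt1, which relays survival signals (-0.31). Nos3, the endothelial nitric oxide synthase, differed by 0.11 and Plcg1, the phospholipase that Kdr engages, by -0.02, and neither passed.

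Oxygen-sensing genes were compared because Vegfa is one of their known targets. Of 9 hypoxia regulators, 3 were called higher and 3 lower, while 3 did not pass. Hif1a, the oxygen-regulated transcription factor subunit, rose 2.59-fold (1.38 ± 0.11, adjusted p = 9.22e-05 in limma). Egln1, the prolyl hydroxylase that marks that subunit for decay, was 2.01-fold lower, and Hif1an, which blocks its activity, 1.49-fold lower. Hif3a was also called higher (0.49, adjusted p = 0.0342 in limma), as was Vhl (0.28, adjusted p = 0.0481). Epas1 was called lower (-0.42, adjusted p = 0.0475 in limma). Of 18 hypoxia-induced genes outside the VEGF family, 10 were called higher and 2 lower, while 6 did not pass, and the median difference was 0.33. P4ha1, a collagen hydroxylase, rose 2.10-fold and Pdk1, a pyruvate dehydrogenase kinase, 1.88-fold. Hk2, a hexokinase, was 1.46-fold and Vldlr, a lipoprotein receptor, 1.81-fold lower. The ID of the Vldlr probe set marks it as able to bind other transcripts. On the same arrays Vegfa differed by -0.10. The count of higher genes fell to 6 without banding replicate 4, and likewise without sham replicate 1, 2 or 4. That of higher hypoxia regulators fell to 1 without banding replicate 4 or sham replicate 2, 3 or 4.

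All 5 genes of PGC-1 coactivators and oestrogen-related receptors (ERR), which control mitochondrial genes and are known to act on VEGF genes in muscle, were lower. Esrra was 2.09-fold lower (-1.06 ± 0.12, adjusted p = 0.000399 in limma), Esrrg 1.94-fold, Esrrb 3.24-fold and Ppargc1b 1.63-fold. Ppargc1a changed by -1.25. The 5 differences ran from -1.70 to -0.70, and the part of these genes in the fall of Vegfb was not tested.

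Growth factors and inhibitors of angiogenesis outside these systems were called higher more often than lower. Of 16 further growth factors, 10 were called higher and 1 lower, while 5 did not pass, and the median difference was 0.67. Mdk, the growth factor midkine, rose 16.3-fold, Ptn, its relative pleiotrophin, 76.7-fold, the matricellular gene Ccn2 10.5-fold and Pdgfb, which recruits pericytes, 1.89-fold. Of 13 angiostatic factors, 7 were called higher and 1 lower, while 5 did not pass, and the median difference was 0.79. Thbs1, the matrix protein thrombospondin 1, was at least 48.6-fold higher, its relative Thbs2 4.92-fold, Serpinf1, the pigment epithelium-derived factor, 4.93-fold and the chemokine Cxcl10 7.60-fold. Without sham replicate 3 there were 2 lower in place of 1. Of 4 angiopoietin-like genes, 0 were higher, Angptl6 was lower and 3 did not pass, while 2 were higher at an unadjusted p under 0.05 in limma. Without banding replicate 4, banding replicate 5 or sham replicate 4 there was 1 higher.

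Of 14 Notch and tip-cell genes, 9 were called higher and 0 lower, while 5 did not pass, and the median difference was 0.81. Unc5b, a guidance receptor of tip cells, rose 5.44-fold, the chemokine receptor gene Cxcr4 by 1.999 log2 units, Plvap, a diaphragm protein of endothelial pores, 2.69-fold, and Esm1, which is on both lists, as above. At an unadjusted p under 0.05 in limma 1 gene was lower, and 1 passed as lower without sham replicate 3. Dll4, the Notch ligand that VEGF-A induces in tip cells, differed by -0.19 and did not pass (adjusted p = 0.615 in limma). Apln, the tip-cell ligand apelin, differed by 0.10 and did not pass.

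**Figure D4:**
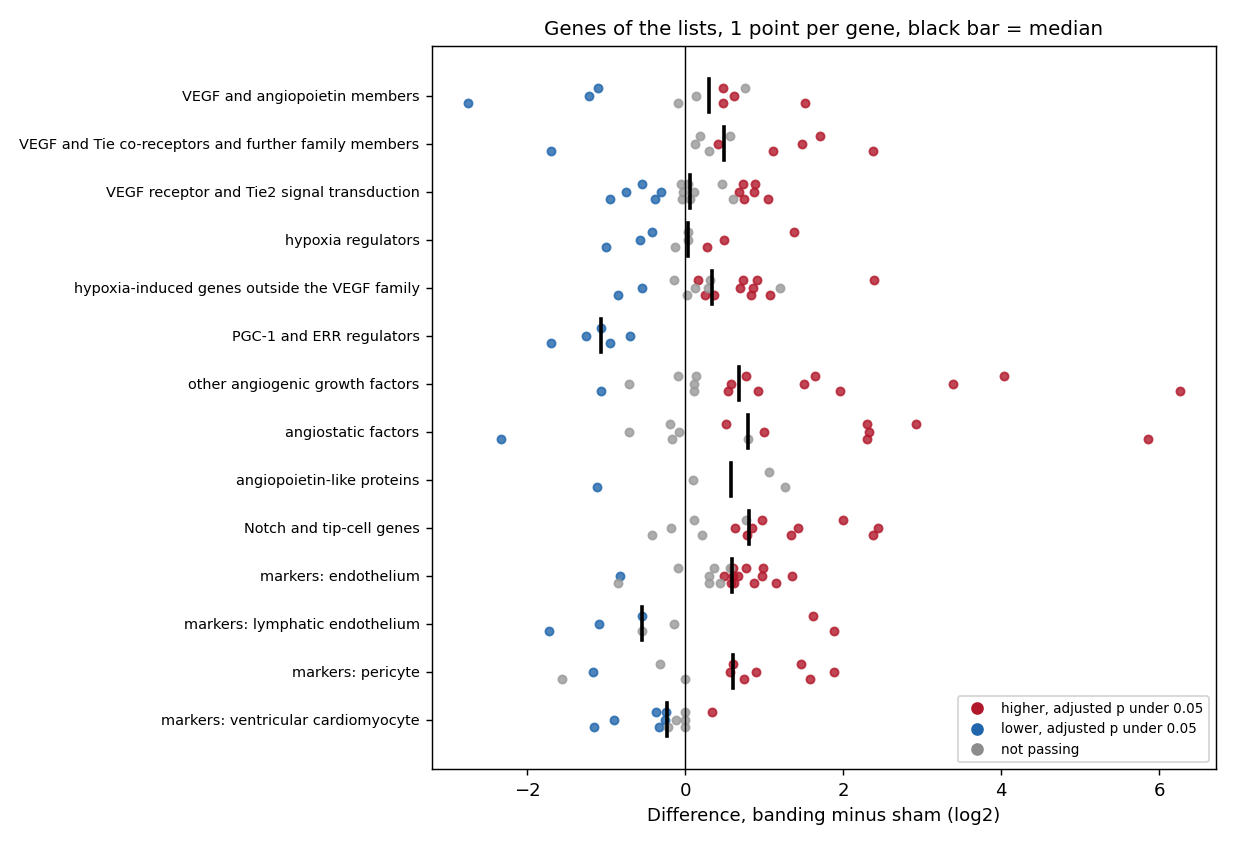
Difference between banding and sham (log2, horizontal axis) for each gene of the lists, 1 point per gene coloured by its call, with a black bar at the list's median. The 5 PGC-1 and ERR genes all lie under 0. The median of the 10 VEGF and angiopoietin genes is 0.31, with Vegfc drawn from its brightest probe set, whose direction another probe set did not share.

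Markers of vessel cells moved on the same arrays. In bulk tissue, fewer cells of a type and less RNA per cell cannot be told apart. Of 20 endothelial markers, 12 were called higher and 1 lower, while 7 did not pass, and the median difference was 0.59, beside 0.62 for Kdr, 0.47 for Flt1 and 0.14 for Tek. The defining markers Pecam1 and Cdh5 rose 1.52-fold and 1.83-fold. The marker called lower was Aqp1 (-0.83, adjusted p = 0.00447 in limma). Car4 (-0.85) and Vwf (-0.10) also had negative differences and did not pass. The summed linear level of the list was 14847 to 21019 in banding and 14050 to 17144 in sham, which overlapped. The part of this shift in the receptor values was not tested.

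Of 7 lymphatic markers, 2 were called higher and 3 lower, while 2 did not pass. Prox1, the transcription factor of lymphatic identity, was 2.14-fold lower and Lyve1, a hyaluronan receptor also found on macrophages, 3.31-fold lower, and Mmrn1, which encodes multimerin 1, changed by -0.55. Pdpn, the membrane glycoprotein podoplanin, was 3.07-fold higher (adjusted p = 4.84e-05 in limma, the smallest of the list), and Nts, the neuropeptide neurotensin, 3.69-fold higher. The list thus went both ways, and the liver transcripts described above also differed between the groups. The summed level was 1263 to 1644 in banding and 1619 to 1786 in sham. Of 11 pericyte markers, 7 were called higher and 1 lower, while 3 did not pass, and the median difference was 0.60. Their summed level was 19129 to 28432 in banding and 22210 to 24274 in sham. Of 12 ventricular cardiomyocyte markers, 1 was called higher and 6 lower, while 5 did not pass, and the median difference was -0.23. Their summed level was 397667 to 448852 in banding and 473987 to 492231 in sham. Single cardiomyocyte markers ran from -1.15 (Tcap) to 0.34 (Mybpc3). The part of pericytes and cardiomyocytes in the falls of Vegfb (-1.11), Pgf (-1.22) and Angpt1 (-2.75) was not tested.

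Among markers of other cells, 11 of 12 of fibroblasts and 12 of 13 of macrophages and monocytes were higher, as were 4 of 7 of smooth muscle. The 9 lymphocyte markers and the 6 lung markers were dim in both groups. Of 6 red cell and platelet markers 1 was lower, and of 5 atrial markers 1 was higher, Nppa, which overloaded ventricles also express. The atrial markers Myl4, Sln and Myl7 did not pass and varied widely, with SEs of 0.81 to 0.98. The summed atrial level, Nppa included, was 34416 to 68466 in banding and 3454 to 20352 in sham. The part of atrial tissue in these values was not tested.

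The genes whose pattern over the 9 arrays was most like that of a called gene were taken by Pearson's r among 10747 genes above the dim level. Angpt1 was nearest to Mmaa (r = 0.998), Mrrf (0.997) and Endog (0.996). Vegfb was nearest to Dnaja3, Mto1 and Cdkal1, each at 0.996. Kdr was nearest to Chaserr (0.983), F11r (0.978) and Edc3 (0.975), and Pgf to Tmtc1 (0.990), Gm26760 (0.983) and Jtb (0.982). Flt4 was nearest to Cstf2 (0.977), Col18a1 (0.975) and Cadm1 (0.972), and Flt1 to Brd2 (0.960), Pawr (0.954) and Ltbr (0.952). The brightest Vegfc probe set was nearest to Ap3s1 (0.998), Ro60 (0.996) and Il6 (0.995). All pairs share the same arrays and the split between groups, so high values of r are a description only.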

How the data were processed

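The table holds log2 expression per probe set, as deposited by the authors, with 1 column per Affymetrix mouse array. RMA and GCRMA are named in the submitters' processing notes, with no version, role or order, so background correction and normalisation were the authors' own. That the scale is log2 was inferred from the values. Of 45101 probe sets, 64 controls, 9160 without a gene and 932 with several were left out, and 34945 named 18193 genes. Each gene was represented by its brightest probe set over all 9 arrays, and every probe set was also tested singly. The groups were compared with limma 3.58.1 in R 4.3.3 (lmFit, eBayes, two-sided, Benjamini-Hochberg over all genes or probe sets), without covariates. The fit was tested on simulated data. The genes and lists were chosen with earlier results of these data known. The text names all 10 genes with their probe sets, up to 4 called genes of each list by p, the leading markers of a cell type, and the 3 nearest genes by correlation. Akt1, Mapk14, Pik3r1, Prkca, Grb2, Pdpn, Nts, Mmrn1, Nos3, Plcg1, Tie1, Dll4, Apln, Nppa, Myl4, Ppargc1a, Epas1, Vhl, Tcap, Mybpc3, Aqp1, Car4 and Vwf were chosen after their values were seen. Listed genes without a symbol match, 9 in all, were not analysed here. Alternatives covered probe set choice, filters, normalisation, models and left-out arrays. Figures used Python 3.11.15, pandas 2.3.3 and matplotlib 3.10.9.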

Additional observations from a re-analysis of the deposited data

Results flagged for a closer look

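Each group was checked for 1 array far from the rest, for every probe set and both within-array differences. Of 42 such groups 2 had no spread and could not be checked, and 3 of the other 40 held such an array. Chance gives about 1 in 20 for groups without identical values, and 6 of the 40 held identical values, for which that share is not known. Sham replicate 4 held 7.69 in Flt4 (1444052_at), where the next highest sham array was at 7.20, and this value was identical on banding replicates 2 and 5. Banding replicate 4 held 8.15 in Flt1 (1451756_at), where the next was at 7.93. Sham replicate 1 held 2.52 in the dim Angpt2 probe set 1459636_at, where the next was at 2.23 and the other 2 sham arrays were identical at the lowest value of the table.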

How the results depend on the processing

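Over 21 alternatives each, Angpt1, Vegfb, Pgf, Kdr and Flt4 kept their direction and call, and Vegfa and Tek never passed. With the mean of all probe sets 2 of the 10 genes were higher in place of 4, because Flt1 and Vegfc no longer passed. With each array left out in turn 3 to 5 were higher and 3 lower. Vegfc reversed to -1.14 without probe sets marked for cross-hybridisation. Angpt2 passed in 7 of 21 alternatives, with differences of 0.33 to 1.06 over all of them and adjusted p from 0.0178 to 0.115. Flt1 passed in 13 of 21. With the mean level of the 18 liver genes as a covariate, Angpt2 differed by 1.06 and passed (adjusted p = 0.0178 in limma). Flt1 and Flt4 each differed by 0.66 in that fit. Flt1 minus Kdr passed with the mean of the probe sets (-0.35) and reversed to 0.00729 without sham replicate 4, and over single arrays left out it ran from -0.26 to 0.00729. The causes were not tested. Angpt2 minus Angpt1 ran from 3.22 to 3.72 over single arrays left out. With the replicate block it was 3.43 and did not pass (exact permutation p = 0.125), the smallest p that 4 pairs allow. The replicate block left the calls of the 10 genes at 4 higher and 3 lower. Same-numbered arrays did not deviate together (r between -0.0294 and 0.0361), and 0 of the 4 sham arrays correlated best with the banding array of their own number. In the other lists 49 genes were higher and 19 lower, and over 13 alternatives these counts ran from 42 to 50 and from 17 to 25. Median centring shifted the median of all genes by -0.13, and the calls over all genes were then 3043 higher and 10485 lower. The shift was the same for every gene, dim genes included, and how many of these lower calls were dim was not counted. The number of arrays, and signal close to the dim level for Angpt2 and Pgf, limit the precision.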
